A study of Bos grunniens with 6 samples.

Results

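The yak testis holds a set of transcripts that were very abundant before sexual maturity and much lower after it. A gene was counted when its level was at least 300 FPKM in all 3 libraries of juvenile testis and when its highest value in mature testis was below 0.5 times its lowest juvenile value. FPKM is the number of fragments of a gene scaled to the length of its transcript and to the size of the library, so levels can be compared between genes. Of 20953 genes in the expression table, 121 met this rule, without *SOD3*, an extracellular superoxide dismutase gene that also met it and is not counted here. The members were chosen on these very FPKM values, so their levels, folds and shares are given as a description, with no test.

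Testis tissue came from 3 yaks aged 6 months (Y6M, before sexual maturity) and 3 yaks aged 30 months (Y30M, after it), and the labels name no treatment. Poly(A) RNA of each testis was fragmented, and part of it was pulled down with an antibody against N6-methyladenosine (m6A). The values used here are the FPKM of the 6 input libraries, which had no antibody step, and a table of m6A peaks called over the replicates of both groups. Whole testis was used, so each value is an average over all its cell types, and fewer cells of a type and less RNA per cell cannot be told apart.

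In a juvenile testis the seminiferous tubules hold mainly Sertoli cells and early germ cells, and Leydig cells lie in the stroma between them. At maturity the tubules fill with meiotic and post-meiotic germ cells, which express a large repertoire of genes found in few other tissues. Growing cells spend much of their messenger RNA on the translation machinery, above all on the proteins of the cytosolic ribosome, whose genes are single highly expressed loci with many near-identical processed copies elsewhere in mammalian genomes. Messenger RNAs of ribosomal proteins share a short pyrimidine-rich start and are translated according to growth signals. The mark m6A is placed on adenosines of messenger RNA, mostly near the stop codon and in the last exon, and affects the stability and translation of the transcript.

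Replicate 3 of both groups stood apart from the other replicates. Over 13912 genes with a mean of at least 1 FPKM, the deviations from the group mean correlated at 0.63 between Y6M replicate 3 and Y30M replicate 3. With the replicates 1 and 2 of the other group they correlated at -0.32 to -0.51. Deviations from a group mean cancel out within the group, so these negative values largely follow from the positive one and are no further evidence. Relative depth, read from the steps between low FPKM values with Y30M replicate 1 set to 1, was 0.911, 1.03 and 0.752 in Y6M against 1, 1.07 and 1.05 in Y30M. Results that rest on replicate 3 are therefore given below with and without it. Post-meiotic germ cell markers fitted the labels, since the summed FPKM of *GSG1* and *SPATA18*, the only 2 of 18 listed that could be measured by name, was 0.638 to 1.54 in Y6M against 489 to 1436 in Y30M.

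The members held a large part of the signal of the juvenile libraries. They made up 0.577% of the genes in the table. Their share of the summed FPKM was 37.6, 36.4 and 36.7% for replicates 1, 2 and 3 of Y6M. For replicates 1, 2 and 3 of Y30M it was 8.33, 6.13 and 8.52%. The groups did not overlap, with means of 36.9% ± 0.661 (SD, n = 3) and 7.66% ± 1.33 (SD, n = 3). Y30M replicate 2 had the lowest share, and the same library had the highest levels of the germ cell genes *GSG1* and *SPATA18*, 1204 and 232 FPKM against 442 to 659 and 47.3 to 133 FPKM in the other Y30M libraries. Between those others the order was not inverse. Y30M replicate 3 had more of both genes than replicate 1 (659 and 133 against 442 and 47.3 FPKM) and also the slightly higher share. The part of germ cell content in the lower share was not tested.

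In absolute FPKM, the members summed to 258046, 248622 and 258025 in Y6M against 48952, 37450 and 53160 in Y30M. The mean sum was 5.48-fold lower in Y30M. All genes together summed to 683862 to 702778 FPKM in Y6M against 587932 to 624025 in Y30M. Genes outside the member set summed to 427562, 435240 and 444753 FPKM in Y6M against 538979, 573482 and 570865 in Y30M, so their sum was 1.29-fold higher in Y30M, or 0.36 on the log2 scale. FPKM is a relative measure, so the size of the members' sum bears on the FPKM of every other gene.

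The share was not the work of a few transcripts. The 10 most abundant members took 14.8, 14.5 and 15.7% of the summed FPKM in Y6M against 3.24, 2.48 and 3.49% in Y30M. They made up 39.3 to 42.7% of the members' own sum in Y6M against 38.9 to 40.9% in Y30M, so the split within the set was nearly the same at both ages while its total differed. The single most abundant member took 3.50, 3.31 and 4.33% in Y6M against 0.837, 0.703 and 0.945% in Y30M. Among the 85 other genes at or above 300 FPKM in every Y6M library, the share was 17.9, 18.7 and 18.3% in Y6M against 12.7, 10.2 and 12.7% in Y30M. All remaining genes took 44.4 to 45.0% in Y6M against 78.7 to 83.6% in Y30M.

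**Figure D1:**
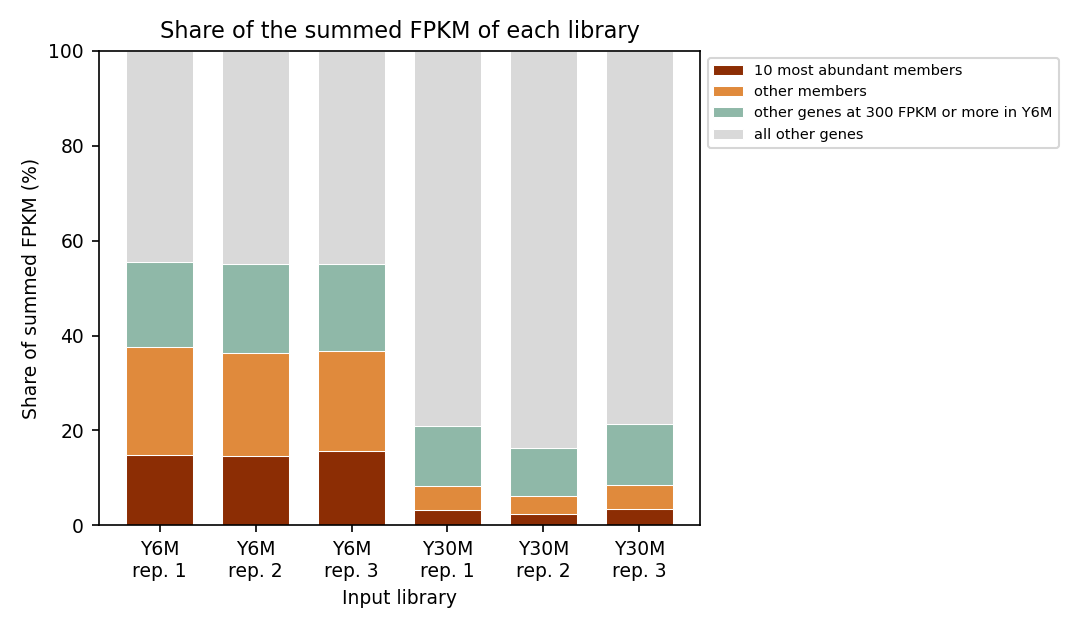
Share of the summed FPKM (%, bars from 0 to 100) in each input library, split into the 10 most abundant members, the other members, the other 85 genes at or above 300 FPKM in all Y6M libraries, and all other genes. The 2 member segments add up to 36.4 to 37.6% in Y6M against 6.13 to 8.52% in Y30M.

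Over all genes above 0 in every Y6M library, 1879 of 15857 fell by the rule's second condition, a background of 11.8%. That share was 10.6% for genes whose lowest Y6M value lay between 1 and 10 FPKM, 13% between 10 and 30, 19.9% between 30 and 100, 28.2% between 100 and 300, and 58.9% at 300 FPKM or more, where 122 of 207 genes fell with *SOD3* included. The member count uses the same contrast, and the ranges of level use the same lowest Y6M value as the fall itself, so nothing is read from the excess of the member count or from the trend with level. Of the 85 abundant genes that did not meet the fall, 53 still had all Y30M values below all Y6M values, 8 had all above, and 24 overlapped, and the median log2 ratio of group means was -0.90.

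The median over members of the group mean was 995 FPKM in Y6M against 203 FPKM in Y30M. The mean was at least 1000 FPKM in 60 members in Y6M and in 11 in Y30M. The ratio of group means ran from 2.74-fold to 466-fold lower, with a median of 5.55-fold, or -2.47 on the log2 scale. It was under 4-fold in 21 members, 4- to 8-fold in 72, 8- to 16-fold in 19 and 16-fold or more in 9. The median fold hardly moved with level, at 5.31 in the 40 most abundant members, 5.82 in the next 40 and 5.55 in the last 41. Between replicates, the median coefficient of variation over members was 14.5% in Y6M against 28.6% in Y30M.

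Many of the members were still well expressed at maturity. The Y30M mean was at least 100 FPKM in 85 of 121 members, and 65 members were below 300 FPKM in all 3 Y30M libraries. Of the 10 genes with the highest mean in the whole table, 7 were members in Y6M against 2 in Y30M. Of the top 50, 34 were members in Y6M against 12 in Y30M, and of the top 100 the numbers were 66 and 16.

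**Figure D2:**
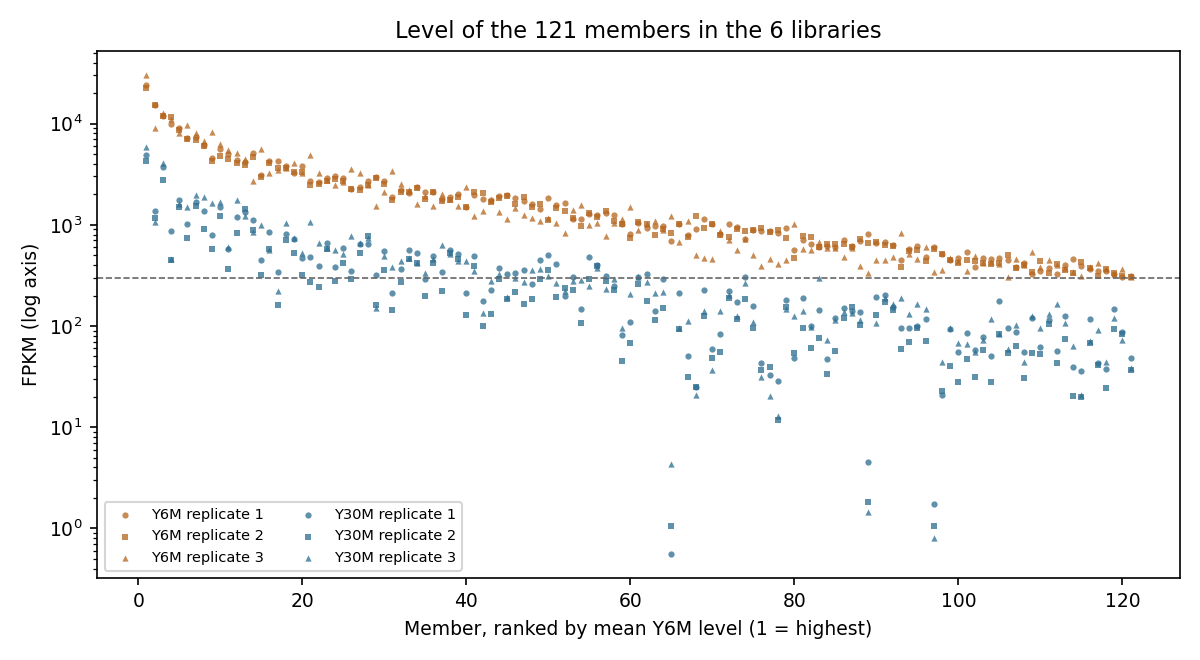
FPKM (log axis) of each of the 121 members in the 6 input libraries, ordered by mean Y6M level. The dashed line is the floor of 300 FPKM, and 3 members drop to a Y30M mean below 10 FPKM while the median fall over all members is 5.55-fold.

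At the edge of the rule, the members with the lowest juvenile minimum had 305 FPKM (*DAG1*) and 307 FPKM. The closest genes under the floor that met the fall had 290 and 286 FPKM. The members with the smallest fall had a highest Y30M value of 0.498 and 0.494 times their lowest Y6M value, and the closest genes just outside had 0.510 and 0.511.

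The 2 most abundant members carry no symbol in the sources used here. The first, ENSBGRG00000001190, was the most abundant member at both ages, with 23987, 22652 and 30405 FPKM in Y6M against 4921, 4296 and 5897 FPKM in Y30M, a mean 5.10-fold lower. The second, ENSBGRG00000019564, had 15394, 15328 and 8970 FPKM in Y6M against 1371, 1158 and 1055 FPKM in Y30M, a mean 11.1-fold lower. Y6M replicate 3 was the highest library for the first gene and the lowest Y6M library for the second.

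The next members in rank had no symbol either and differed in how far they fell. The third in rank had 11967, 11823 and 12684 FPKM in Y6M against 3739, 2785 and 4098 FPKM in Y30M, one of the smaller falls at 3.43-fold. The fourth had 9978, 11698 and 11088 FPKM in Y6M against 873, 445 and 461 FPKM in Y30M, 18.4-fold lower. It was the steepest fall among the 40 most abundant members.

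A small group of members was nearly silent at maturity. In 3 members, at ranks 65, 89 and 97, the Y30M mean was below 10 FPKM. The member at rank 65 had 693, 826 and 1224 FPKM in Y6M against 0.560, 1.05 and 4.28 FPKM in Y30M, 466-fold lower. The member at rank 97 had 601, 571 and 345 FPKM in Y6M against 1.73, 1.06 and 0.801 FPKM in Y30M, 423-fold lower. At rank 89 the values were 806, 660 and 330 FPKM in Y6M against 4.58, 1.81 and 1.47 FPKM in Y30M, 229-fold lower. The Y30M values of these 3 genes are small, so their folds have a wide error, but each was at least 330 FPKM in every juvenile testis. Of the 9 members that fell 16-fold or more, Y6M replicate 3 was the lowest Y6M library in 7, against 57 of the other 112.

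Only 6 members had a gene symbol, taken from the study's supplementary tables, and 5 are described here: *RPL5*, *APP*, *EIF4B*, *RPL34* and *DAG1*. Functional annotation was available mainly for the first 1402 genes in order of identifier, which held 8 members. Of these 8, 4 were annotated to the cytosolic ribosome (*RPL5*, *RPL34* and 2 genes without a symbol), others were *APP* and *EIF4B*, and 1 was the most abundant member, which had no annotation. What the other members encode was not analysed here.

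*RPL5* encodes a protein of the large ribosomal subunit that carries the 5S ribosomal RNA into it. It had 802, 738 and 1504 FPKM in Y6M against 110, 68.3 and 207 FPKM in Y30M, 7.90-fold lower in the mean. Replicate 3 was the highest library in both groups.

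*RPL34*, another protein of the large subunit, had 347, 312 and 421 FPKM in Y6M against 42.9, 41 and 90.7 FPKM in Y30M, 6.19-fold lower. Replicate 3 again stood above the others at both ages. Without Y6M replicate 3 or any other single library, the log2 ratio of group means stayed between -2.58 and -3.51 in *RPL5* and between -2.43 and -3.10 in *RPL34*.

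Among the members were also 2 genes whose functional terms name the small ribosomal subunit, both without a symbol and named here after their values were seen. ENSBGRG00000000914, the fifth in rank, had 9098, 8722 and 7997 FPKM in Y6M against 1761, 1495 and 1614 FPKM in Y30M, 5.30-fold lower. ENSBGRG00000001362 had 947, 901 and 559 FPKM in Y6M against 171, 117 and 127 FPKM in Y30M. In these genes replicate 3 was the lowest library in Y6M, opposite to *RPL5* and *RPL34*.

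Another 4 genes annotated to the cytosolic ribosome were not members, with 0.455 to 74.0 FPKM in Y6M, and 3 of these 4 were called lower in Y30M. Over all genes tested, 19% were called lower. Functional terms came from the study's supplementary tables, as symbols did, and may favour genes that it listed as differential. The counts of ribosomal genes are therefore not independent evidence of a direction. Ribosomal protein genes have many processed copies, and reads that mapped to several places were left out by the authors, so the level of each single locus is uncertain where a near-identical copy exists. For the mitochondrial ribosome, 2 genes could be measured by name, and the difference from the cytosolic genes was not tested. *MRPL37* had 36.0, 36.0 and 37.9 FPKM in Y6M against 94.3, 108 and 115 FPKM in Y30M, and rose by 1.5 ± 0.11 (log2 fold change ± SE, adjusted p = 0.000347, limma). *MRPL51* rose by 0.87 ± 0.21 (adjusted p = 0.0234, limma), a call that was lost when libraries were rescaled to the FPKM outside the members (0.51). Both mitochondrial genes were named after their values were seen.

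*EIF4B* encodes an initiation factor that helps the helicase of the translation machinery to open the start of messenger RNAs. Its level was 377, 335 and 446 FPKM in Y6M against 113, 104 and 131 FPKM in Y30M, 3.33-fold lower. The spread was small at both ages.

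The other 2 named members have no core role in translation. *APP*, a membrane protein precursor expressed in many tissues, had 708, 770 and 571 FPKM in Y6M against 190, 94.7 and 139 FPKM in Y30M, 4.83-fold lower. Y30M replicate 1 was the highest mature library.

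*DAG1* encodes dystroglycan, which ties the cytoskeleton to laminin in the basement membrane. It was the least abundant member, with 314, 308 and 305 FPKM in Y6M against 48.5, 37.0 and 38.7 FPKM in Y30M, 7.46-fold lower. No other named member varied so little among the juvenile libraries.

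**Figure D3:**
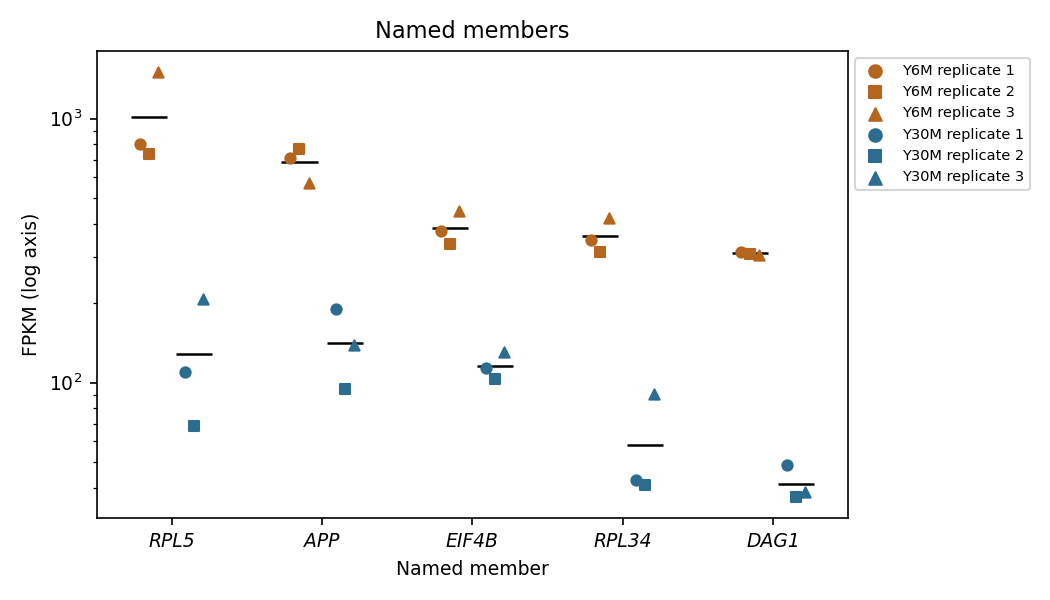
FPKM (log axis) of 5 members with a symbol, one point per library and a line at the group mean. Every Y6M point lies above every Y30M point of the same gene, as the rule requires, and the 2 large subunit genes *RPL5* and *RPL34* are highest in replicate 3 of both groups.

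The place of replicate 3 among the libraries was compared between the ages for each member. In Y6M, replicate 3 was the highest library for 42 members, the lowest for 64 and between the others for 15. In Y30M it was the highest for 54 and the lowest for 23. It was the highest at both ages for 35 members and the lowest at both ages for 19, whereas it changed sides from highest to lowest in 2 and from lowest to highest in 10. The same pattern held beyond the members, over 7666 genes above 0 in every library with a mean of at least 10 FPKM. There it was the highest at both ages in 2314 and the lowest at both in 1925, and changed sides in 313 and 305. Its median deviation over the members was -0.09 on the log2 scale in Y6M and 0.15 in Y30M.

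Where replicate 3 of Y6M lay at least 1.5-fold above both other libraries, in 10 members, it was also the highest Y30M library in all 10. Of the 20 members where it lay at least 1.5-fold below, it was the lowest Y30M library in 12 and the highest in none. Over the 7666 genes, it was the highest Y30M library in 1248 of 1416 that lay above. Of 988 that lay below, it was the lowest in 630 and the highest in 61. The deviation of replicate 3 correlated between the ages at 0.73 over the 121 members, 0.74 over the other abundant genes and 0.62 over 7666 genes with a mean of at least 10 FPKM. These values are across genes that share the same libraries and their depth, and are a description. The share of genes in which Y6M replicate 3 lay beyond 1.5-fold was 24.8% of members, 28.2% of other abundant genes and 31.4% of the 7666 genes. Without Y6M replicate 3, the rule gave 158 genes. Leaving out a library can only loosen the rule, so all 121 members had to be among them.

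**Figure D4:**
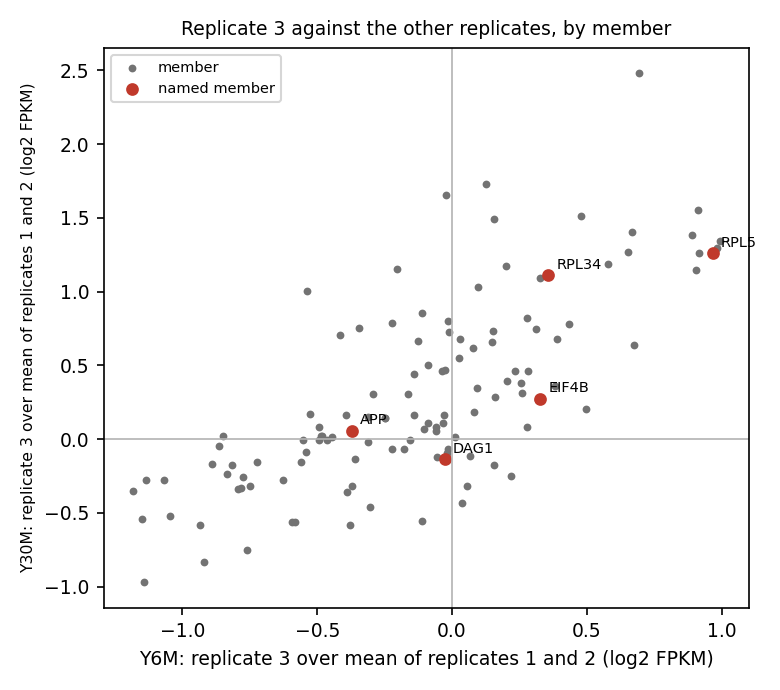
Replicate 3 against the mean of replicates 1 and 2 (log2 FPKM) in Y6M (x axis) and in Y30M (y axis), one point per member. Members high in replicate 3 of Y6M were mostly high in replicate 3 of Y30M (35 were the highest at both ages, 19 the lowest at both), and *RPL5* lies far to the upper right.

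Gene lists of testis cell types and functions gave the surroundings of this fall. Symbols were available mostly for genes that the study listed as differential, so the counts below are not independent evidence of a direction. In the test of Y30M against Y6M over all 19477 genes above 0 (limma on log2(FPKM + 1), called where the unadjusted p was 0.05 or less with a change of 1.5-fold or more), 3691 genes were lower, a background of 19%, and 5320 were higher, 27.3%. When libraries were rescaled to the FPKM outside the members, 4792 were lower and 4440 higher, so the share of higher genes among the calls went from 59.0 to 48.1%. This scaling was chosen after seeing the data. The sum outside the members was higher in Y30M, so the scaling lowers Y30M values and the shift toward lower calls was built in. Rescaled to the same sum over all genes, 3324 were lower and 6073 higher, a share of 64.6%. The lists held 34 measured genes that were not members, of which 22 were lower and 5 higher, with a median log2 fold change of -1.30 against 0.04 over all genes.

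Among extracellular matrix genes, all 6 measured of 44 listed were lower, with a median of -2.43. *COL6A2*, a chain of type VI collagen, came close to the members with 326, 273 and 223 FPKM in Y6M against 64.9, 45.2 and 45.7 FPKM in Y30M. *COL6A1*, its partner chain, fell by 2.85 ± 0.19 on the log2 scale (adjusted p = 0.000278, limma). *MGP*, an inhibitor of matrix calcification, fell by 2.48 ± 0.48 (adjusted p = 0.0100, limma).

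Genes of cholesterol synthesis were lower in 3 of 4 measured. *LSS*, which closes the sterol rings, had 48.8, 32.4 and 24 FPKM in Y6M against 9.21, 4.72 and 7.62 FPKM in Y30M. It fell by 2.12 ± 0.34 on the log2 scale (adjusted p = 0.00484, limma). *CYP51A1*, which removes a methyl group from the sterol ring, had 25.5 to 35.2 FPKM in Y6M against 37.5 to 60.3 FPKM in Y30M and did not pass (adjusted p = 0.101, limma), though it passed as higher when libraries were rescaled to the same sum or Y30M replicate 1 was left out.

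Sertoli and Leydig cell markers were lower as well, at levels under the floor of the rule. The Sertoli cell genes *FSHR*, *DHH* and *SOX9*, all 3 measured of 22 listed, summed to 108 to 125 FPKM in Y6M against 25.7 to 45.3 FPKM in Y30M, and all 3 were called lower. *LHCGR*, the luteinizing hormone receptor of Leydig cells and the only 1 measured of 18, had 39.7, 34.4 and 67.3 FPKM in Y6M against 1.67, 1.44 and 5.37 FPKM in Y30M. Of endothelial markers 3 of 4 were lower. The leukocyte gene *AIF1* was higher, at 3.72 to 11 FPKM in Y6M against 17.2 to 38.8 FPKM in Y30M. No erythrocyte or spermatogonia marker could be measured by name, and the part of cell composition in the members' levels was not tested.

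Other abundant genes were named from the lists of the cytoskeleton and of chaperones. Of 4 cytoskeleton genes 3 were lower and 1 was higher. The higher one was *TUBB2A*, named here because its call was unstable (log2 fold change 0.73, adjusted p = 0.076, limma). That call was lost when any single library except Y6M replicate 2 was left out. It was also lost with median-of-ratios factors and with the rescaling to the FPKM outside the members. *MYL6*, a light chain of myosin and the most abundant of the 4 in Y6M, had 603, 604 and 500 FPKM in Y6M against 256, 192 and 244 FPKM in Y30M. *TUBA1B*, an alpha tubulin, had 527, 482 and 409 FPKM in Y6M against 214, 104 and 147 FPKM in Y30M. *LGALS1*, a galectin listed with them, fell by 0.92 ± 0.27 (adjusted p = 0.0425, limma), a call lost without Y6M replicate 3. Of 3 chaperones 2 were lower, and *HSPA8* had 763, 801 and 1102 FPKM in Y6M against 396, 202 and 468 FPKM in Y30M. *HSPE1*, the mitochondrial co-chaperone, fell by 1.86 ± 0.58 (adjusted p = 0.0480, limma), a call lost when Y6M replicate 3, Y30M replicate 1 or Y30M replicate 2 was left out. *HSPD1*, its partner, had a log2 fold change of -1.12 and did not pass (adjusted p = 0.244, limma). It passed with the replicates paired and without Y30M replicate 3, and leaving out single libraries moved its log2 fold change between -0.48 and -1.68.

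Of the remaining lists, *PEG10*, an imprinted gene of retroviral origin, was lower, with 406, 411 and 452 FPKM in Y6M against 262, 129 and 172 FPKM in Y30M, and *NNAT* did not pass. *ACTG2*, a smooth muscle actin, was higher and *SMTN* did not pass. The call of *ACTG2* was lost when Y6M replicate 2 or Y30M replicate 3 was left out, and when libraries were rescaled to the FPKM outside the members. *UQCRQ*, the only nuclear-encoded respiratory gene measured, had 54.2 to 56.3 FPKM in Y6M against 28.3 to 47.8 FPKM in Y30M and did not pass, but passed as lower with median-of-ratios factors, with the rescaling to the FPKM outside the members and without Y30M replicate 3. *YTHDF2*, the only m6A reader or enzyme measured by name, was 17.2 to 21.4 FPKM in Y6M against 23.2 to 29.1 FPKM in Y30M, below the fold of 1.5, which it passed when libraries were rescaled to the same sum.

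The m6A table gives each peak with its enrichment over input and its own FDR, over the replicates of both groups together, so a peak has no replicate error and the reads behind it are unknown. Of 121 members, 50 had at least 1 peak, 41.3% (95% Wilson interval 32.9 to 50.2%, which covers counting error only). They held 76 peaks, with 1 peak in 30 members, 2 in 14 and 3 in 6. These members lay on 21 chromosomes, with 7 members on chromosome 8, 5 on chromosome 20 and 4 each on chromosomes 5 and 19. Peaks were not used by the rule, but their detection depends on the level of the transcript.

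The share of genes with a peak was also taken in other sets and by level. It was 34.1% (24.9 to 44.7%) of the other 85 abundant genes. Among 129 genes that fell likewise from a juvenile minimum of 100 to 300 FPKM it was 34.9% (27.2 to 43.4%). Both intervals overlap that of the members, and the differences were not tested. Over all genes the share was 41.2%. By mean Y6M level it was 9.66% under 1 FPKM, 70.1% at 3 to 10, 70.5% at 10 to 30, 57.7% at 30 to 100, 40.3% at 100 to 300, 39.9% at 300 to 1000 and 30.8% at 1000 FPKM or more. The ranges from 300 FPKM include the members, which were 60 of the 91 genes at 1000 FPKM or more, so these ranges are no separate comparison. Within the members, 9 of the 40 most abundant had a peak (22.5%), against 23 of the next 40 (57.5%) and 18 of the last 41 (43.9%).

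**Figure D5:**
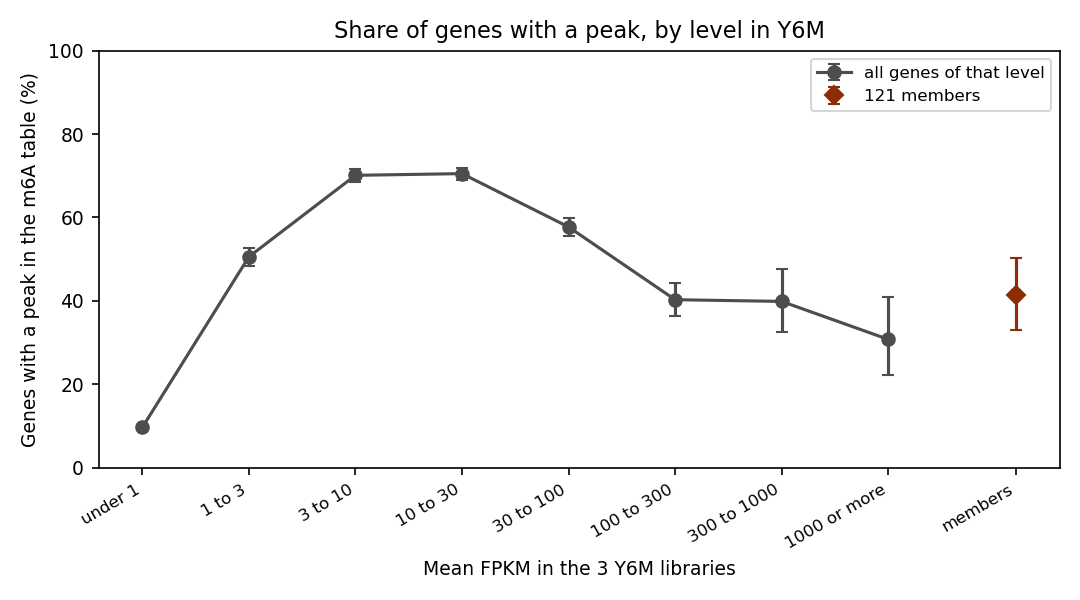
Share of genes with at least 1 peak in the m6A table (%), by mean FPKM in the Y6M libraries, with 95% Wilson intervals. The share is highest at 3 to 30 FPKM (70.1 and 70.5%). It is 41.3% in the members, against 40.3 and 39.9% at 100 to 1000 FPKM and 30.8% at 1000 FPKM or more. The ranges from 300 FPKM include the members.

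The members' peaks were weakly enriched. The median enrichment was 1.95-fold over input, from 1.19 to 4.21, with quartiles at 1.60 and 2.38. It was 1.84 in the other abundant genes, 1.98 in the genes falling from 100 to 300 FPKM and 2.31 over all 15685 peaks on genes of the expression table. An FDR of at most 0.05 was reached by 24 of 76 member peaks, 31.6%, in 18 members. The share was 22.7% in the other abundant genes, 19.2% in the genes falling from 100 to 300 FPKM and 68.9% over all peaks. Counted by gene, 14.9% of members had such a peak, compared with 8.24% of the other abundant genes, 6.98% of the genes falling from 100 to 300 FPKM and 30.3% of all genes. Of the member peaks, 46 of 76 spanned more than 1 exon block, 60.5%. That share was 72.7% in the other abundant genes, and 52.6% both in the genes falling from 100 to 300 FPKM and over all peaks. The median exonic length was 218.5 bases, against 250, 248.5 and 296 bases in these sets.

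The strongest peak among the members lay on chromosome 8 from 43711269 to 43711917 on the minus strand (LU_Bosgru_v3.0), 4.21-fold over input with an FDR of 1.26e-19, in a member at rank 58. Of the named members, 4 of 5 had a peak and *RPL34* had none. The peak of *RPL5* ran over 3 exon blocks of chromosome 3 from 55098082 to 55101096 on the minus strand, with an enrichment of 2.27 and an FDR of 0.0011. Whether such exonic blocks belong to coding sequence or to untranslated regions was not analysed here.

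In the other named members the FDR of the peak was 1. *APP* had 1 peak over 8 exon blocks of chromosome 1 from 27781150 to 27900251, at 2.42-fold. *EIF4B* had 2 peaks on chromosome 5, at 2.64- and 2.93-fold. *DAG1* had 1 peak in a single block of 1688 bases on chromosome 22 from 11636207 to 11637894, at 2.77-fold. The most abundant member had no peak, and neither did the 2 small subunit genes, while the second in rank had 2 weak ones on chromosome 19, at 2.03- and 1.37-fold.

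The authors' lists of adenosines within peaks give a score between 0 and 1 and a call of methylated or not, for Y6M on all chromosomes and for Y30M on chromosomes 1 and 2 only. Of the 76 member peaks, 41 overlapped a peak of the Y6M list, 53.9%, in 30 members. The share was 38.6% in the other abundant genes and 75.7% over all peaks. Inside the exon blocks of the members' peaks, 264 adenosines were scored and 123 were called methylated, 46.6%, against 39.6% in the other abundant genes and 41% over all genes. The peak of *DAG1* alone gave 32 of the members' scored and 25 of their called adenosines, so the members' share leans on it. Adenosines of 1 peak share a transcript and its sequence and are not independent.

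By gene, the single block of *DAG1* held 25 called sites of 32 scored, and the peak of *APP* held 7 of 12. In *EIF4B* 11 were called over both peaks, and in *RPL5* none of 2. On chromosomes 1 and 2, where both lists could be used, 3 members had 4 peaks. Of these, 1 was in the Y6M list, 2 were in the Y30M list and 2 were in neither. The peak of *APP* was the one in both, with 10 adenosines scored in Y30M and 6 of them called.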

How the data were processed

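Input and m6A immunoprecipitation libraries of yak testis were made by the authors from 3 Y6M and 3 Y30M animals, with 1 animal per replicate as far as the labels say. Per the labels, reads were trimmed with Trimmomatic and aligned with HISAT2 to LU_Bosgru_v3.0, and deepTools was also listed. Multi-mapped reads were left out. The authors' deposited expression table holds FPKM for each gene and input library. FPKM are not counts, so no count model was used. The deposited peak table of MeTDiff holds for each peak a fold enrichment (ratio of immunoprecipitated to input reads) and a log10 FDR, treated as a score. Per the file headers, a count of exon blocks is given with each peak. Its columns of the authors' own comparison (log2 fold change, p-value and FDR of Y30M against Y6M) were not used. The lists of adenosines give the authors' score for each position. The tool behind that score is not given in the sources used here.

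Shares were computed over the summed FPKM of all 20953 genes. Genes above 0 were tested with limma 3.58.1 (R 4.3.3) on log2(FPKM + 1), a call needing an unadjusted p of 0.05 or less and a change of 1.5-fold or more, as in the study's methods, with Benjamini-Hochberg values beside it. Fold changes on this scale understate those of low genes. The fit was tested on simulated data. Peaks were joined to genes by identifier and adenosines to exon blocks by position. Intervals are 95% Wilson intervals. Symbols and functional terms came from the study's supplementary tables (2139 identifiers with a symbol, 761 with terms), since the genes of the available RefSeq table could not be matched. The members and lists were chosen with earlier results of these data known. All members with a symbol were named, apart from 1 that, like 1 listed gene, is not reported here, the 2 most abundant without one, and at most 3 genes per list, the most abundant in Y6M, apart from genes said to be named later. The reported fit was unpaired, and a fit with the replicate number as a block was an alternative. Same-numbered replicates deviated together (r = 0.24, 0.30 and 0.63 over 13912 genes), although Y6M replicate 1 correlated more with Y30M replicate 2 (0.33). With 3 libraries a group, the precision is limited, and the depth was known only as a relative value.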

Additional observations from a re-analysis of the deposited data

How the results depend on the processing

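The count of 121 members went to 105 with libraries rescaled to the same sum, 135 with median-of-ratios factors, 151 with a floor of 200 FPKM, 79 with a floor of 500 FPKM, and 122 to 158 when single replicates were left out. Leaving out a replicate can only loosen the rule, so the count could not fall there. The share of the members in Y6M was 34.5% without the most abundant gene. With the replicate block, which pairs the same-numbered replicates, 4131 genes were lower and 5616 higher. It changed no call of a named list gene apart from *HSPD1* and the endothelial gene *EMCN*, named here for that, which then passed as lower. At a fold of at least 2, the calls of *LGALS1*, *SOX9*, *TUBB2A* and *MRPL51* were lost among the genes named. The number of listed genes outside the members that were higher, 5, went to 7 with libraries rescaled to the same sum, to 3 when libraries were rescaled to the FPKM outside the members, an alternative chosen after seeing the data, and to between 3 and 5 when single replicates were left out (3 without Y30M replicate 3). The share of members with a peak, 41.3%, was 14.9% for peaks with an FDR of at most 0.05 and 24.8% for peaks overlapping the Y6M list, where all genes went from 41.2% to 30.3 and 34.3%, and the share of called sites went from 46.6 to 23.5% at a score of at least 0.6, since each of these keeps fewer peaks or sites. No named gene changed direction past its threshold. The balance of calls over all genes did turn, with more lower than higher when libraries were rescaled to the FPKM outside the members. FPKM hold no read counts, so counting error could not be given for single genes.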

Other observations

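*GAPDH*, the glycolytic enzyme gene that the study used as internal reference of its quantitative PCR, was among the abundant genes that did not meet the fall. It had 769, 795 and 631 FPKM in Y6M against 405, 237 and 353 FPKM in Y30M, with no overlap between the groups. Its log2 fold change was -1.17 ± 0.23 (adjusted p = 0.011, limma), -0.98 to -1.53 under the other scalings and settings tried, and -0.94 to -1.33 when single libraries were left out. It was singled out after its values were seen.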
